A study of Mus musculus with 9 samples.

Results

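The genes described here are 10 that mark the path from a macrophage precursor to a bone-resorbing osteoclast: Tnfrsf11a, Nfatc1, Dcstamp, Ocstamp, Itgb3, Car2, Atp6v0d2, Acp5, Ctsk and Mmp9. They were taken by gene name from a table of 20627 features, and all 10 had a row. The table covers mRNA sequencing of RAW264.7, an established mouse macrophage-like line, in 3 groups of 3 libraries. The labels give 1 batch for all 9 libraries. HG cells were kept in 35 mmol/l glucose for 6 hours, and HG-SIG cells in the same glucose for the same time with sitagliptin phosphate, an inhibitor of dipeptidyl peptidase 4 used against type 2 diabetes. NC is taken here as the control, although no glucose concentration or time is stated for it. The sitagliptin concentration is not stated either, and the sources name no osmotic control, no group with sitagliptin alone and no RANKL in any group. HG against NC therefore sets high glucose beside the control, and HG-SIG against HG sets sitagliptin within high glucose. Whether the 3 libraries of a group came from separate cultures is not stated. The p-values therefore reflect the spread among these libraries alone, and that spread may be technical.

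Osteoclasts form when RANKL, made by osteoblasts and osteocytes, binds its receptor RANK on macrophage-lineage cells that also receive the survival signal CSF1. RANK signals through TRAF6 to NF-kB and AP-1, and calcium signals from ITAM-bearing receptors activate calcineurin, so that the transcription factor NFATc1 enters the nucleus and raises its own gene. NFATc1, together with PU.1 and MITF, switches on genes for cell fusion, attachment to bone, acid secretion and matrix digestion. RAW264.7 cells can be driven along this path by RANKL and are a common model of it.

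The cells carried a macrophage profile. Of 9 macrophage markers, 8 were above 1 in TMM-scaled CPM, the gene's count set against the effective size of its library, in every group. A list of 10 mature osteoclast markers holds 8 of the genes described here, and its summed level was 232 to 238 CPM in NC, 266 to 321 CPM in HG and 103 to 113 CPM in HG-SIG, of which Car2 made up the largest share. Of that list, 7 genes were tested and 3 were near 0. Calcr, the calcitonin receptor, had 1, 1 and 0 counts summed over the 3 libraries of NC, HG and HG-SIG. Oscar, an osteoclast-associated costimulatory receptor, had 7, 3 and 7 counts, and Itgb3 had 1, 1 and 4. Transcripts of osteoclast genes such as Car2 and Dcstamp were thus present in cells in which these 3 markers were near 0. Library totals ran from 23285821 to 31571578 counts, at which 3 counts correspond to 0.095 to 0.129 CPM. In the osteoblast and stromal list, the summed level was 8.13 to 8.92 CPM in NC and 5.08 to 5.57 CPM in HG, against 5.59 to 6.34 CPM in HG-SIG. For 5 dendritic markers, 4 of them in the table, the sums were 6.69 to 7.40, 3.77 to 5.01 and 3.64 to 4.37 CPM. Of 7 lymphocyte markers, 4 were in the table, and their sum stayed at or under 0.157 CPM in every library.

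RefSeq promoter windows of the assembly GRCm38.p6, the same assembly as mm10, matched 3 of the 10 genes. All 3 are shown; they belong to genes that were not called in HG against NC and fell in HG-SIG. Positions count back from the RefSeq transcription start. The Ctsk run ends just before that start, while the Tnfrsf11a and Acp5 runs stop 5 and 10 bases earlier, because those bases lie inside annotated exons. Capitals mark the letters of the motifs that were searched.
Tnfrsf11a promoter, chr1:105780473-105780717, plus strand: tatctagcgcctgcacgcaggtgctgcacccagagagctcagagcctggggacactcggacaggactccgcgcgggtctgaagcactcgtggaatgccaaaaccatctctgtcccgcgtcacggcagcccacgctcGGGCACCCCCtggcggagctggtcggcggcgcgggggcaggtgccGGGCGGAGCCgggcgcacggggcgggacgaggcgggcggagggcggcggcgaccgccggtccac
Ctsk promoter, chr3:95498960-95499209, plus strand: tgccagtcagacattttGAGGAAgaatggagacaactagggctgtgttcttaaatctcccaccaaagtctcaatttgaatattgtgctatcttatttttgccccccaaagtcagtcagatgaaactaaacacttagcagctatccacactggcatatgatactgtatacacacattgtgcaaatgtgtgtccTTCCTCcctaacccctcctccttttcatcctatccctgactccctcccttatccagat
Acp5 promoter of the downstream start, chr9:22130609-22130848, minus strand: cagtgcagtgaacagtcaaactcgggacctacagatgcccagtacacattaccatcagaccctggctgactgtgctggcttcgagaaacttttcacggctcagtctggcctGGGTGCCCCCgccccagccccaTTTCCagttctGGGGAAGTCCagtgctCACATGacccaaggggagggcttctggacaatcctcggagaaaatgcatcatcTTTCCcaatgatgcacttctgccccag

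Both strands were searched for NFAT (GGAAA), AP-1 (TGANTCA), CRE (TGACGTCA), the MITF E-box (CACGTG or CATGTG), NF-kB (GGG and CC with any 5 bases between them) and ETS, the family of PU.1 (GAGGAA). A run that matches on both strands counts once, and the letters of ETS and NFAT can overlap. The Tnfrsf11a window held 2 NF-kB matches, at bases -114 and -69 from the start, and none of the other motifs. The Ctsk window held 2 ETS matches, at -233 and -58. The Acp5 window held 2 NFAT matches, at -117 and -37, 1 E-box at -90 and 2 NF-kB matches at -139 and -106. The other windows of Acp5 lay at 2 upstream starts. The nearer held 1 NFAT match and 2 NF-kB matches, and the farther held 1 NFAT match. Matches of this kind are common. Of 32851 promoter windows of the same length, 55.6% held NFAT, 45.8% NF-kB, 23.3% ETS, 17.6% the E-box, 6.75% AP-1 and 1.55% CRE. The GC content was 73.6% in the Tnfrsf11a window, 43.2% in the Ctsk window and 54.4% in the Acp5 window, beside a median of 52.4% over all windows. A match describes letters in a window and is not evidence of binding.

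Of the 10 genes, 9 had enough counts to be tested. Of these 9, 8 reached the filter's minimum in all 3 groups and Mmp9 reached it through NC alone, while Itgb3 stayed below it throughout. Genes were called at an adjusted p under 0.05 (edgeR's quasi-likelihood test, Benjamini-Hochberg over 13311 genes), and every adjusted p given here comes from that test unless another is named. The counts that follow are over the 8 genes that reached the minimum in all 3 groups. Mmp9 could be tested only because it was high in NC, so it is given on its own below. In HG against NC, 4 of the 8 fell (Ocstamp, Dcstamp, Nfatc1, Atp6v0d2), Car2 rose, and Tnfrsf11a, Acp5 and Ctsk were not called, beside 29.5% of all genes called, 14.3% higher and 15.2% lower. In HG-SIG against HG, all 8 fell, beside 52.5% of all genes called, 25.7% higher and 26.8% lower. In HG-SIG against NC, all 8 fell, beside 58.6% called, 29.9% higher and 28.7% lower. The median log2 fold change of the 8 was -0.22, -1.50 and -1.84 in the 3 comparisons, while the median over all genes was 0, 0.01 and 0.02. The series takes an absolute log2 fold change above 1 as its criterion. Called genes past it numbered 2, 5 and 6 of the 8, each of them a fall. Over all genes the shares past it were 2.85%, 5.3% and 8.51%, and the shares with a fall of that size were 2.22%, 3.14% and 5.6%. In HG against NC, 5 of the 8 had no overlap between the groups' libraries, beside 41.7% of all genes. All 8 had none in the other two comparisons, beside 58.7% of all genes for sitagliptin within high glucose and 65.9% for HG-SIG against NC. The HG libraries enter both steps, from NC to HG and from HG to HG-SIG, so the values of the steps are given side by side and are not independent. In RNA from a whole culture, fewer cells that express a gene and less RNA per cell cannot be told apart.

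Most macrophage markers also fell in HG-SIG. The summed level of the list was 10856 to 11322 CPM in NC and 9772 to 10555 CPM in HG, against 5035 to 5138 CPM in HG-SIG. Lyz2 made up the largest share, with means of 6286, 6107 and 2823 CPM. All 8 tested markers fell in HG-SIG against HG, beside 26.8% of all genes called lower. In HG against NC, 4 of the 8 fell and 2 rose, Csf1r and Fcgr1, while Adgre1 and Lyz2 were not called. Over all genes, 15.2% were called lower and 14.3% higher there. In HG-SIG against NC, 7 of the 8 fell, beside 28.7% of all genes, and Fcgr1 was not called. The part of this shift in the fall of the osteoclast genes was not tested.

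**Figure D1:**
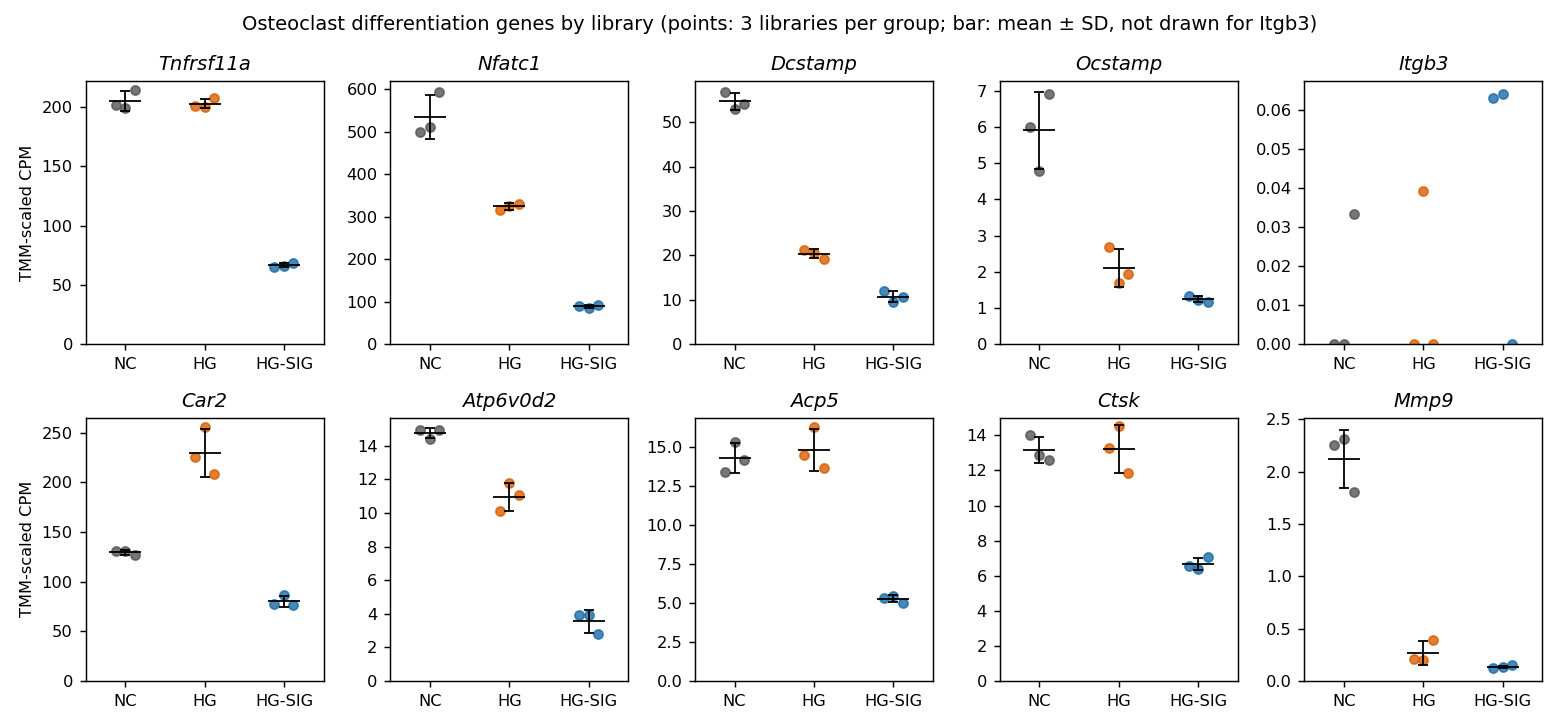
TMM-scaled CPM (vertical axis, from 0) of each of the 10 genes in the 9 libraries. Points show the 3 libraries of NC, HG and HG-SIG, and bars the mean ± SD, not drawn for Itgb3. Tnfrsf11a, Acp5 and Ctsk overlap between NC and HG and drop in HG-SIG, Car2 peaks in HG, and Itgb3 stays at 0 to 2 counts per library.

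Tnfrsf11a encodes RANK, the receptor that starts the pathway (ENSMUSG00000026321, mm10 chromosome 1, 105780718 to 105847981, plus strand). Its level was 202, 199 and 214 CPM in the NC libraries, 201, 200.2 and 208 CPM in the HG libraries, and 65.2, 65.9 and 68.8 CPM in the HG-SIG libraries. NC and HG overlapped, while every HG-SIG library lay below both. From NC to HG the log2 fold change was -0.02 ± 0.04 (SE; adjusted p = 0.8), whose sign turned under 2 other scalings. HG-SIG against HG gave -1.61 ± 0.04 (adjusted p = 2.3e-11), and HG-SIG against NC gave -1.62 ± 0.04 (adjusted p = 3.7e-12). The receptor's main adaptor, Traf6, went the other way in HG-SIG: it averaged 43.6 ± 1.42 CPM in NC (SD, n = 3) and 43.8 ± 1.19 in HG, against 53.0 ± 0.611 in HG-SIG. Its log2 fold change was 0.28 ± 0.04 in HG-SIG against HG (adjusted p = 9.8e-05). The ligand gene Tnfsf11 and the decoy receptor gene Tnfrsf11b were not analysed here.

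Nfatc1 encodes the transcription factor that commits a precursor to the osteoclast path (ENSMUSG00000033016, chromosome 18, 80606205 to 80713071, minus strand). It stood at 499, 512 and 594 CPM in NC, at 316, 326 and 331 CPM in HG and at 90.7, 85.8 and 92.9 CPM in HG-SIG. The 3 groups formed 3 separate steps with no overlap. The log2 fold change was -0.72 ± 0.06 in HG against NC (adjusted p = 1.2e-06), -1.85 ± 0.06 in HG-SIG against HG (adjusted p = 1.8e-10) and -2.58 ± 0.06 in HG-SIG against NC (adjusted p = 2.7e-12). The last is the largest fall among the 8 genes. Rcan1, a calcineurin regulator whose gene is a known NFAT target, fell at both steps as well, from 175 CPM in NC to 89.5 in HG and 27.3 in HG-SIG (log2 fold changes of -0.97 and -1.72). Nfatc2 and Nfatc3 encode other calcineurin-controlled NFAT factors. Nfatc3 averaged 105 ± 1.54, 108 ± 5.37 and 129 ± 1.47 CPM in NC, HG and HG-SIG, a rise of 0.26 ± 0.04 on the log2 scale in HG-SIG against HG (adjusted p = 0.00014). Nfatc2 averaged 47.4 ± 1.21, 47.1 ± 4.39 and 43.3 ± 2.62 CPM and was not called (adjusted p = 0.91, 0.13 and 0.09). That outcome depended on the setting: with only the 2 groups compared, HG-SIG against NC gave -0.14 (adjusted p = 0.025), and with libraries scaled by size alone it gave 0.06 (adjusted p = 0.45).

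Mitf and Spi1, which encode partners of NFATc1, fell too. Mitf, which with NFATc1 drives Acp5 and Ctsk, averaged 168 ± 7.66 CPM in NC and 123 ± 4.25 in HG, against 39.7 ± 0.652 in HG-SIG, with log2 fold changes of -0.45 ± 0.04 (adjusted p = 3.7e-06) and -1.63 ± 0.04 (adjusted p = 3.7e-11) at the 2 steps. Spi1, the gene of PU.1, averaged 365 ± 22.2, 314 ± 19.3 and 191 ± 2.23 CPM, with log2 fold changes of -0.22 ± 0.05 and -0.72 ± 0.05. Both were called at each step. Irf8, a repressor of Nfatc1 that is lost as osteoclasts form, averaged 46.0 ± 2.36, 44.8 ± 2.19 and 24.3 ± 1.71 CPM, with -0.03 ± 0.06 in HG against NC (adjusted p = 0.7) and -0.88 ± 0.06 in HG-SIG against HG (adjusted p = 1.3e-07).

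Dcstamp encodes DC-STAMP, the membrane protein that precursors need in order to fuse (ENSMUSG00000022303, chromosome 15, 39745930 to 39760938, plus strand). It measured 56.9, 53.0 and 54.1 CPM in NC, 21.3, 20.6 and 19.2 CPM in HG and 11.96, 9.41 and 10.7 CPM in HG-SIG. No 2 groups overlapped, and HG-SIG lay lowest. The log2 fold change was -1.42 ± 0.07 in HG against NC (adjusted p = 1e-08), -0.93 ± 0.08 in HG-SIG against HG (adjusted p = 9.2e-07) and -2.35 ± 0.07 in HG-SIG against NC (adjusted p = 2.7e-11). Ocstamp encodes OC-STAMP, a second multipass protein needed for fusion (ENSMUSG00000027670, chromosome 2, 165393760 to 165400405, minus strand). It was scarcer, at 6.01, 4.79 and 6.92 CPM in NC, 2.68, 1.69 and 1.94 CPM in HG and 1.33, 1.22 and 1.16 CPM in HG-SIG. Its log2 fold changes were -1.48 ± 0.18 (adjusted p = 4.5e-05), -0.78 ± 0.22 (adjusted p = 0.009) and -2.26 ± 0.19 (adjusted p = 4.8e-07) in the same 3 comparisons. The counts behind it summed to 504, 164 and 119 in the 3 groups. The call in HG-SIG against HG rested on HG replicate 1, the highest HG library: without it the log2 fold change was -0.55 with an adjusted p of 0.06. Both fusion genes fell in HG against NC.

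Itgb3 encodes the integrin beta 3 chain, which with the alpha v chain anchors osteoclasts to bone (ENSMUSG00000020689, chromosome 11, 104608000 to 104670476, plus strand). It had 0, 0 and 1 counts in NC, 0, 1 and 0 in HG and 2, 2 and 0 in HG-SIG. At this depth no level could be told from 0 in any group, and no fold is given. Its partner Itgav was abundant, at 257 ± 33.0 CPM in NC and 280.4 ± 25.4 in HG, against 181 ± 9.55 in HG-SIG. Itgav was not called in HG against NC (0.13 ± 0.08, adjusted p = 0.29) and fell by 0.63 on the log2 scale in HG-SIG against HG (adjusted p = 5e-05).

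Car2 encodes carbonic anhydrase 2, which makes the protons that osteoclasts pump onto bone (ENSMUSG00000027562, chromosome 3, 14886273 to 14900770, plus strand). It measured 130.7, 130.7 and 127 CPM in NC, 226, 256 and 208 CPM in HG and 77.8, 86.7 and 76.1 CPM in HG-SIG. It was the 1 member that rose in high glucose, and its HG-SIG libraries lay below those of NC. The log2 fold change was 0.83 ± 0.07 in HG against NC (adjusted p = 1.2e-06), -1.52 ± 0.07 in HG-SIG against HG (adjusted p = 2.8e-09) and -0.69 ± 0.07 in HG-SIG against NC (adjusted p = 2.5e-06). Of the 7 other carbonic anhydrase and acid phosphatase genes tested, 2 rose and 2 fell in HG against NC, and 1 rose and 4 fell in HG-SIG against HG (2 and 2 with library size alone). The shares of all genes called were 29.5% and 52.5% at these steps. Car5b, a mitochondrial carbonic anhydrase, averaged 53.7, 61.9 and 30.5 CPM and fell by 1.02 on the log2 scale in HG-SIG against HG, while Car13 averaged 11.5, 7.41 and 9.28 CPM and rose by 0.33.

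Atp6v0d2 encodes the d2 subunit of the vacuolar proton pump, the osteoclast form of that subunit and also needed for fusion (ENSMUSG00000028238, chromosome 4, 19876841 to 19922605, minus strand). It measured 14.9, 14.4 and 14.9 CPM in NC, 10.1, 11.8 and 11.0 CPM in HG and 3.94, 3.92 and 2.77 CPM in HG-SIG. The groups did not overlap, and HG lay between NC and HG-SIG. The log2 fold change was -0.43 ± 0.10 in HG against NC (adjusted p = 0.0052), -1.63 ± 0.12 in HG-SIG against HG (adjusted p = 1.8e-07) and -2.06 ± 0.11 in HG-SIG against NC (adjusted p = 6.6e-09). Atp6v0d1, the widely expressed form of the same subunit, averaged 82.7 ± 1.57, 76.8 ± 3.87 and 79.5 ± 5.01 CPM and was not called in any of the 3 comparisons (adjusted p = 0.14, 0.45 and 0.34). With libraries scaled by size alone it was called higher, by 0.21 in HG-SIG against HG (adjusted p = 0.0026) and by 0.13 in HG-SIG against NC (adjusted p = 0.028), where TMM scaling gave 0.05 and -0.06. Tcirg1, the a3 subunit that places the pump at the bone surface, averaged 189 ± 11.9, 159 ± 21.3 and 133 ± 18.2 CPM, with -0.25 ± 0.1 in HG against NC (adjusted p = 0.072) and -0.25 ± 0.1 in HG-SIG against HG (adjusted p = 0.046). The latter call was lost with libraries scaled by size alone (-0.09, adjusted p = 0.46) and on leaving out NC replicate 1 or 2, HG replicate 1 or 3, or HG-SIG replicate 1 or 2 (adjusted p = 0.06 to 0.19). Clcn7, the chloride transporter that balances the pump's charge, averaged 44.4 ± 1.89, 35.9 ± 2.19 and 38.1 ± 0.984 CPM. It fell by 0.31 on the log2 scale in HG against NC (adjusted p = 0.00057). In HG-SIG against HG it was not called (0.09 ± 0.05, adjusted p = 0.16). In HG-SIG against NC it fell by 0.22 (adjusted p = 0.0022), a call lost with libraries scaled by size alone (-0.03, adjusted p = 0.61).

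Acp5 encodes tartrate-resistant acid phosphatase, the enzyme stained to count osteoclasts (ENSMUSG00000001348, chromosome 9, 22126727 to 22135711, minus strand). It measured 13.4, 15.4 and 14.1 CPM in NC, 14.5, 16.3 and 13.7 CPM in HG and 5.33, 5.46 and 5.01 CPM in HG-SIG. NC and HG overlapped, and the HG-SIG libraries lay together below them. From NC to HG the log2 fold change was 0.06 ± 0.08 (adjusted p = 0.64), HG-SIG against HG gave -1.49 ± 0.09 (adjusted p = 3.1e-08) and HG-SIG against NC gave -1.44 ± 0.09 (adjusted p = 2.3e-08). Of its exon bases, 137 (6.75%) overlap 6530413G14Rik on the other strand, and without a known strand setting reads there cannot be assigned. Ctsk encodes cathepsin K, the protease that cuts bone collagen (ENSMUSG00000028111, chromosome 3, 95499256 to 95509362, plus strand). It measured 14.0, 12.9 and 12.6 CPM in NC, 13.3, 14.6 and 11.8 CPM in HG and 6.53, 6.39 and 7.04 CPM in HG-SIG. Its log2 fold changes were 0.01 ± 0.08 (adjusted p = 0.95), -0.99 ± 0.09 (adjusted p = 1.4e-06) and -0.98 ± 0.09 (adjusted p = 8.5e-07). Both enzymes fell in HG-SIG, and neither was called in HG against NC.

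The lysosomal cathepsins common to macrophages also fell in HG-SIG against HG. Ctsb averaged 1512.8 ± 36.4, 1268.5 ± 37.1 and 886 ± 20.5 CPM, with a log2 fold change of -0.52 ± 0.04 in that comparison. Ctsl averaged 843 ± 17.3, 594 ± 20.7 and 402 ± 13.5 CPM, with -0.57 ± 0.04. Ctss averaged 396 ± 5.24, 412 ± 18.8 and 296 ± 7.38 CPM, with -0.48 ± 0.04. Whether these falls differ in size from that of Ctsk was not tested. In HG against NC, Ctsb and Ctsl fell (-0.25 and -0.5) and Ctss was not called (0.06 ± 0.04, adjusted p = 0.31).

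Mmp9 encodes gelatinase B, a protease that osteoclast precursors use in migrating through matrix (ENSMUSG00000017737, chromosome 2, 164940780 to 164955850, plus strand). It had 68, 56 and 54 counts in NC, 6, 5 and 9 in HG and 4, 4 and 5 in HG-SIG. The gene was scarce in every group and close to the counting limit in both high-glucose groups. Summed counts were 178, 20 and 13, so NC was 8.13-fold above HG (exact 95% counting interval 5.11 to 13.6) and 15.7-fold above HG-SIG (8.93 to 30.0). HG was 1.93-fold above HG-SIG with an interval of 0.912 to 4.21. Intervals cover counting error only. The fitted log2 fold change was -3.00 ± 0.29 in HG against NC (adjusted p = 5.5e-06), -0.93 ± 0.43 in HG-SIG against HG (adjusted p = 0.1) and -3.93 ± 0.31 in HG-SIG against NC (adjusted p = 2.5e-07). Without HG replicate 3, the highest HG library, HG-SIG against HG gave -0.57 (adjusted p = 0.42). With limma on log2(TPM + 1), which shrinks folds of low genes, the 3 values were -1.23, -0.12 and -1.35. Mmp9 passed the filter only through NC, so a fall from NC was favoured by the choice of genes to test.

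**Figure D2:**
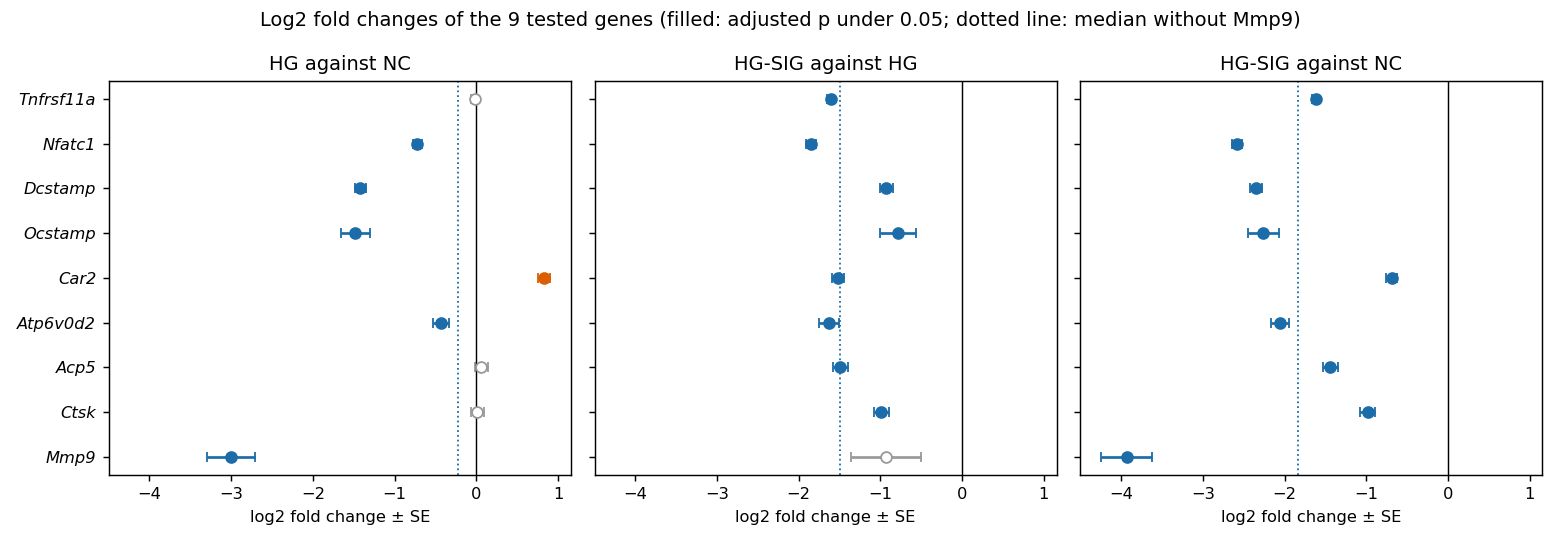
Log2 fold changes ± SE (horizontal axis) of the 9 tested genes, 1 panel per comparison, with filled points for an adjusted p under 0.05 and a dotted line at the median of the 8 genes other than Mmp9. The medians lie at -0.22, -1.50 and -1.84, and Car2 is the 1 filled point above 0.

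**Figure D3:**
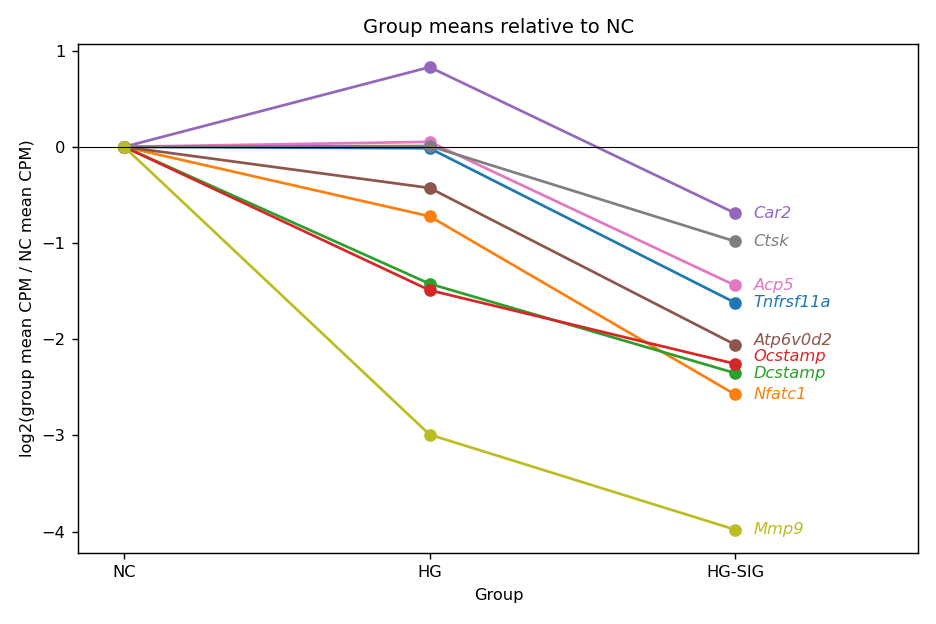
Mean CPM of the 9 tested genes in NC, HG and HG-SIG relative to the NC mean (vertical axis, log2). Of the 8 genes other than Mmp9, 3 run level from NC to HG before dropping, 4 fall at HG already, and Car2 rises first. Mmp9 falls at HG as well, but it passed the filter only through NC, which favoured a fall. Every line ends below 0 in HG-SIG.

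Compared per transcript length in TPM (counts per exon length, scaled to a fixed total in each library), the 10 genes covered a wide range and their order shifted between groups. In NC, Nfatc1 led at 229 TPM, followed by Car2 at 171, Tnfrsf11a at 109 and Dcstamp at 65.6 TPM. Ctsk at 27.8, Acp5 at 22.5, Atp6v0d2 at 17.4, Ocstamp at 5.16, Mmp9 at 1.92 and Itgb3 at 0.006 TPM came after them, and no neighbours in that order overlapped between libraries. In HG, Car2 came first at 309.6 TPM, before Nfatc1 at 142 and Tnfrsf11a at 111, and Dcstamp dropped below Ctsk to 25.0 TPM, where its libraries overlapped those of Acp5 at 23.8. In HG-SIG, Car2 stayed first at 125 TPM. Nfatc1 at 45.3 and Tnfrsf11a at 41.9 TPM overlapped there, as did Ctsk at 16.6 and Dcstamp at 15.1 TPM. Nfatc1 thus went from the first place in NC to a level shared with Tnfrsf11a in HG-SIG.

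The genes closest in pattern to Nfatc1 were found from the 3 group means of log2 CPM, centred for each gene, by the smallest root mean square difference. They were Rbfox1 (0.069), C3ar1 (0.07), Kirrel3 (0.075), Ptpn5 (0.087) and Tnip3 (0.098). Tnip3, for one, averaged 263 CPM in NC and 162 in HG, against 51.4 in HG-SIG. The closest to Tnfrsf11a were Fgf13 (0.038), Flt1 (0.05), Cxcl16 (0.059), Ahnak (0.069) and Ifitm6 (0.071). Cxcl16 averaged 145 CPM in NC and 146 in HG, against 51.9 in HG-SIG. With 3 groups, such likeness is a description of shape over 3 points.

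The other genes of the pathway were read from lists by role. Their counts rest on TMM scaling. The mean log2 TMM factors of the 2 groups differed by 0.03, 0.16 and 0.19 in the 3 comparisons, taken in the order above. With library size alone, log2 fold changes lie higher by about that much. The split of all calls into higher and lower moved from 1899 and 2028 to 2480 and 1732, from 3417 and 3572 to 6093 and 1826, and from 3978 and 3823 to 6786 and 2120. The osteoclast genes called, 6, 8 and 9 with Mmp9 included, were the same genes under that scaling. Of 14 tested genes that carry the RANK signal (adaptors and kinases), 4 fell and none rose in HG against NC, including Gab2, a scaffold bound to RANK (20.3, 12.2 and 14.1 CPM, -0.73 ± 0.06). In HG-SIG against HG, 5 rose and 3 fell, with a median of 0.05, and with library size alone 11 rose and 2 fell. Chuk, the kinase IKK alpha, rose by 0.36 and Tab1, a TAK1 partner, fell by 0.44 on the log2 scale. Taken over both directions, the calls of this list lay near the share of all genes called, 29.5% and 52.5% at the 2 steps. They are not read as a trait of the list. Of 16 calcium, calcineurin and NFAT genes, 5 fell in HG against NC, and 8 rose and 4 fell in HG-SIG against HG (8 and 2 with library size alone). The store sensor Stim1 rose by 0.51, and the calcium channel Itpr3 fell by 0.75 on the log2 scale.

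Of 11 ITAM costimulation genes, 3 rose and 3 fell in HG against NC, and 2 rose and 7 fell in HG-SIG against HG (median -0.61). The shares of all genes called higher were 14.3% and 25.7% at the 2 steps, and called lower 15.2% and 26.8%. Lcp2, the adaptor SLP-76, fell from 246 CPM in NC to 124 in HG and 78.3 in HG-SIG. Syk, the kinase recruited to ITAMs, averaged 36.2, 36.6 and 81.7 CPM and rose by 1.16 ± 0.04 on the log2 scale in HG-SIG against HG, against the direction of 8 of the members. Blnk, an adaptor below Syk, averaged 30.0, 45.2 and 21.3 CPM, with 0.59 and -1.09 at the 2 steps. Sirpb1a was scarce, at 1.13, 0.966 and 0.175 CPM, and its reads may be shared with near-identical family members. Of 6 CSF1 axis genes, 1 rose and 1 fell in HG against NC, and 2 rose and 2 fell in HG-SIG against HG (4 and 1 with library size alone). Csf1r, the CSF1 receptor, averaged 1989.8 ± 48.6, 2381 ± 52.4 and 1374 ± 19.5 CPM, with log2 fold changes of 0.26 ± 0.03 (adjusted p = 9.7e-05) and -0.79 ± 0.03 (adjusted p = 2.1e-09).

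Of 20 other transcription factors of the path, 14 fell and 2 rose in HG against NC (median -0.42). In HG-SIG against HG, 9 fell and 1 rose (median -0.09), and with library size alone 8 fell and 8 rose. The shares of all genes called lower were 15.2% and 26.8% at the 2 steps, and called higher 14.3% and 25.7%. Taken over both directions, the calls of the transcription factors in HG-SIG against HG lay near the 52.5% of all genes called. Myc went from 18.9 CPM in NC to 2.57 in HG and 0.230 in HG-SIG. The AP-1 gene Fosl1 went from 18.7 to 6.20 and 2.87 CPM, Fos from 123 to 94.1 and 41.4 CPM, and the NF-kB gene Relb from 19.2 to 7.52 and 8.14 CPM. Of 16 inhibitors, 9 fell and 4 rose in HG against NC (median -0.31), and 10 fell and 1 rose in HG-SIG against HG (median -0.61). The falls included Lilrb4a, an inhibitory receptor whose reads may be shared with a close paralogue (295, 65.4 and 17.6 CPM), and Bcl6, a repressor of Nfatc1 (73.9, 62.5 and 19.5 CPM). Rbpj, the Notch pathway's DNA-binding factor, went from 208 to 150.5 and 49.6 CPM.

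Of 11 other fusion genes, 7 fell and 1 rose in HG against NC, and 9 fell and 1 rose in HG-SIG against HG (5 and 2 with library size alone). Beside them, 15.2% and 26.8% of all genes were called lower at the 2 steps, and 14.3% and 25.7% higher. Adam8, a membrane protease, went from 681 CPM in NC to 527 in HG and 139.7 in HG-SIG, a log2 change of -1.92 ± 0.05 at the second step. The hyaluronan receptor Cd44 went from 545 to 283 and 172 CPM, and the tetraspanin Cd9 from 804 to 622 and 352 CPM. Of 23 integrin, podosome and sealing zone genes, 13 fell and 1 rose in HG against NC, and 17 fell and 4 rose in HG-SIG against HG (9 and 5 with library size alone). Src, needed for the ruffled border, was scarce at 2.48, 0.733 and 0.373 CPM and fell at both steps (-1.76 ± 0.23 and -0.96 ± 0.29). Itgb5, an alternative partner of the alpha v chain, rose from 52.4 to 80.03 CPM in HG and stood at 72.5 CPM in HG-SIG.

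Of 18 other acid and chloride secretion genes, 6 fell and 2 rose in HG against NC, and 11 fell and 2 rose in HG-SIG against HG (7 and 6 with library size alone). Beside them, 15.2% and 26.8% of all genes were called lower at the 2 steps, and 14.3% and 25.7% higher. Slc37a2, a lysosomal sugar-phosphate transporter of osteoclasts, averaged 88.9, 113 and 39.3 CPM, with 0.35 ± 0.05 and -1.52 ± 0.05, the same order of groups as Car2. Slc9b2, a sodium-proton exchanger induced in osteoclasts, was scarce at 2.48, 2.83 and 0.558 CPM and fell by 2.33 on the log2 scale at the second step. Plekhm1, which guides lysosomes, averaged 96.3, 109 and 56.9 CPM. Of 11 matrix protease and inhibitor genes, 6 fell and 1 rose in HG against NC, and 9 fell and 1 rose in HG-SIG against HG (median -0.52). Plau, the plasminogen activator urokinase, went from 121 to 60.8 and 9.89 CPM, and its receptor gene Plaur from 119 to 34.8 and 29.6 CPM. Of 5 maturity and coupling genes, all 5 fell in HG-SIG against HG, 3 of them with library size alone. Sema4d, an osteoclast signal to osteoblasts, went from 172 to 107 and 46.2 CPM. Across the 12 lists, the medians in HG-SIG against HG ran from -0.61 to 0.05, beside -1.50 for the 8 osteoclast genes. Genes and lists were chosen with earlier results known, and this difference was not tested. The macrophage markers are a list outside these 12, and all 8 tested fell in the same comparison. Their falls ran from Cd14 (759 to 258 CPM) to Fcgr1 (33.9 to 27.6 CPM).

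**Figure D4:**
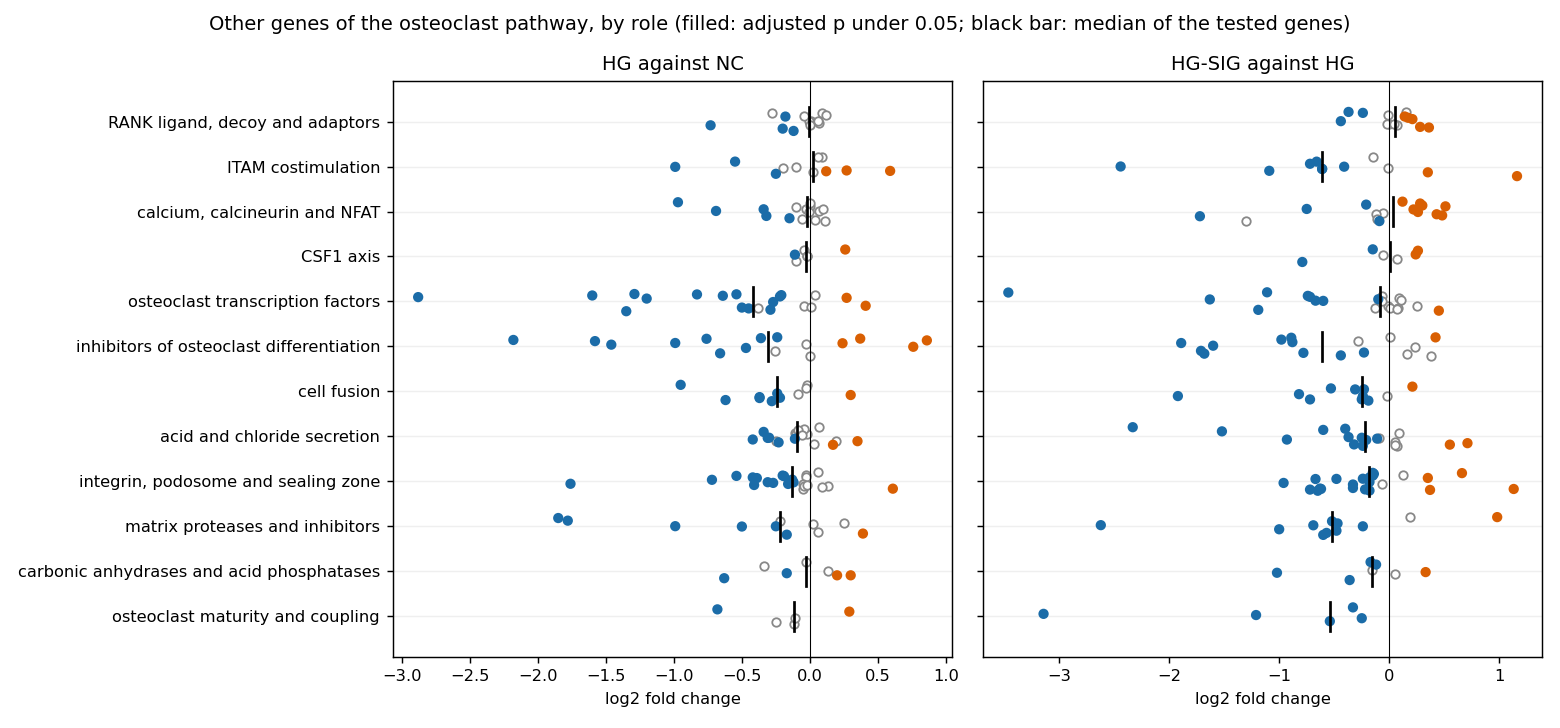
Log2 fold changes (horizontal axis) of the tested genes of 12 pathway lists in HG against NC and in HG-SIG against HG, 1 point per gene, filled for an adjusted p under 0.05, with a black bar at the median of each list. The medians in HG-SIG against HG run from -0.61 for the ITAM and inhibitor lists to 0.05 for the RANK adaptors.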

How the data were processed

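mRNA of 9 RAW264.7 libraries was selected with oligo(dT) beads and primed with random hexamers, per the labels' protocols. The deposited values were gene counts that the authors had made with Bowtie2 2.3.5, RSEM and the build mm10, per the submitters' processing notes. Their annotation release is not given in the sources used here, nor is the strand setting. Since all values (100%) were whole numbers, RSEM's estimates could have been rounded; they were tested as they stood. Of 20627 features, 18631 had an Ensembl identifier, of which 18564 were found in GENCODE M21, the source of coordinates and exon lengths. Gene names carried a transcript suffix, which was removed. Groups and replicate numbers came from the sample titles, and glucose and time from the series' design text.

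In edgeR 4.0.16 (R 4.3.3), low genes were removed by filterByExpr (groups given, minimum count 10), libraries were scaled with TMM, and 1 model with 3 group means was fitted to the 9 libraries together. The series states limma on log2 TPM, which was run as an alternative because the table holds counts. Each comparison used the quasi-likelihood F-test, adjusted with Benjamini-Hochberg over all 13311 genes tested. The standard error is the absolute log2 fold change divided by the root of F. TPM was computed from the counts and union exon lengths, without TMM factors. The counting intervals are exact 95% intervals for the ratio of 2 summed counts. The 10 genes, the lists and the markers were chosen with earlier results of these data known. Of each list, named genes are among the up to 3 called ones with the largest absolute log2 fold change per comparison, together with partners and paralogues chosen by name; values of those partners are given whatever their result, apart from an item that is not reported here. The code was tested on simulated data. Alternatives were other scalings, filters and tests (DESeq2 1.42.0, limma 3.58.1), a replicate block, only the groups compared, and leaving out each library.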

Additional observations from a re-analysis of the deposited data

How the results depend on the processing

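Over 18 alternatives, 6 of the osteoclast genes were called in HG against NC under each, Mmp9 included. In HG-SIG against HG 7 to 8 were called, and in HG-SIG against NC 9 with Mmp9. The main model called 29.5%, 52.5% and 58.6% of all genes. Mmp9 passed the main filter only through NC, which favoured its calls against NC. The 7 came from leaving out HG replicate 1, without which Ocstamp was not called. Counts of all genes called ran from 3062 to 4663, 6193 to 8092 and 7106 to 8906, and with 1 library left out from 3062 to 4000, 6193 to 7147 and 7106 to 8191. Libraries with the same replicate number were weakly alike. Their correlations across groups were 0 to 0.1, beside -0.08 to 0.04 for other pairs. Of the 9 libraries, 8 correlated best with their own number, and the main model did not use the numbers. With the replicate block, 4663, 7563 and 8282 genes were called, and 6, 8 and 9 of the osteoclast genes, and Nfatc2 was called lower in HG-SIG against HG (adjusted p = 0.03) and against NC (adjusted p = 0.017). With limma on log2(TPM + 1), 2375, 6626 and 7095 genes were called higher and 1639, 1466 and 1753 lower. With the 2 groups compared alone, Mmp9 failed the filter in HG-SIG against HG and has no value. Signs turned only for values not called, except Clcn7 in HG-SIG against NC (-0.22, adjusted p = 0.0022). In HG against NC, Tnfrsf11a became 0.01 with library size alone and 0.02 with limma on TPM, and ran from -0.04 to 0.02 with 1 library left out; Acp5 then ran from -0.02 to 0.11, Ctsk from -0.06 to 0.08, Traf6 from -0.02 to 0.03, Nfatc2 from -0.09 to 0.05 and Nfatc3 from 0 to 0.07. Atp6v0d1 ran from 0 to 0.09 in HG-SIG against HG. Nfatc2 became 0.02 under both scalings in HG against NC, 0.04 and 0.08 in HG-SIG against HG, and 0.06 and 0.10 in HG-SIG against NC. Atp6v0d1 became 0.13 and 0.18 (adjusted p = 0.0029) in HG-SIG against NC. Clcn7 became -0.03 with library size alone (adjusted p = 0.61) and 0.01 with limma on TPM (adjusted p = 0.83), so its call was lost under both. The cause of these turns was not tested. Depth limited Itgb3 and Mmp9, whose HG and HG-SIG libraries held under 10 counts.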
